A study of Mus musculus with 15 samples.

Results

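The 5 lungs described here came from mice given house dust mite (HDM) extract alone, which makes 5 of the 15 samples of the series. They are the libraries that the labels call MICE16 to MICE20, taken by their labels and named here HDM replicates 1 to 5. The mice were female wild-type C57BL/6 animals, dosed intranasally with 10 µg of HDM extract for 5 days a week over 2 weeks and killed on day 15. They carried no transgene and received no cells, whereas the other 10 mice of the series had the same HDM course plus adipose mesenchymal stem cells and enter no value below. Saline-treated mice were not analysed here, so each level is that of inflamed lung, with no healthy lung beside it. A lobe was homogenised whole after storage in RNAlater, and total RNA with an RNA integrity number above 8 was made into stranded libraries, so all lung cell types are measured together. The labels do not say which lobe was taken or whether any libraries were prepared on the same day. Each library is a separate mouse by its label, and replicate numbers follow the order of deposition.

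House dust mite extract is an allergen mixture that carries proteases and microbial products. In mice, allergen given through the airway prompts epithelial cells to release alarmins such as IL-33 and TSLP, and type 2 lymphocytes then make IL-4, IL-5 and IL-13. IL-4 and IL-13 drive mucus production, eotaxin release, a switch to IgE and IgG1 in B cells, and an alternatively activated state in macrophages that is marked in mice by Arg1, Retnla and Chil3. The questions put to these 5 libraries were how abundant the transcripts of each cell type and programme were, and which programmes differed together from lung to lung.

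Total counts ranged from 29635897 to 44201637 per library. At least 10 counts in each of the 5 libraries were found for 17495 of 55421 genes, of which 14510 were protein-coding. Levels of different genes are compared in TPM (transcript abundance corrected for exon length and for the total of the library), and libraries are compared in CPM (counts relative to the total of a library scaled by TMM). A count filter first dropped genes with few counts in any of the 5 libraries, including genes nearly absent from 1 lung only. Among kept genes that averaged 1 CPM or more, the median ratio of the highest to the lowest library was 1.45. Of these 15983 genes, called all genes below, 2588 (16.2%) were at least 2-fold apart. Mitochondrial transcripts took 5.57% ± 1.11 of counts (SD, n = 5) and immunoglobulin transcripts 0.880% ± 0.432. The protein-coding gene of highest level in all 5 libraries was a lung epithelial marker, Scgb1a1, which fits the tissue on the label.

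Because the results turn in part on genes with known regulators, promoter windows of 3 of them are printed here, each from 250 bases before to 50 bases after the RefSeq start on build GRCm38.p6, with the searched motif in capitals. Retnla, on the plus strand at chr16:48842359-48842658, stands for the type 2 response. It holds 1 copy of TTCNNNNGAA, the palindrome spacing preferred by STAT6, the factor activated by IL-4 and IL-13, and 6.95% of 32851 promoter windows hold this motif. Dusp1, on the minus strand at chr17:26508423-26508722, stands for the immediate early genes. It holds TGACGTCA, the cAMP response element, found in 1.79% of windows. Cyp1a1, on the plus strand at chr9:57697363-57697662, stands for genes that were high in 1 library. It holds GCGTG, the core letters of the element bound by the aryl hydrocarbon receptor, found on either strand in 32.4% of windows. A match describes the letters only.
Retnla: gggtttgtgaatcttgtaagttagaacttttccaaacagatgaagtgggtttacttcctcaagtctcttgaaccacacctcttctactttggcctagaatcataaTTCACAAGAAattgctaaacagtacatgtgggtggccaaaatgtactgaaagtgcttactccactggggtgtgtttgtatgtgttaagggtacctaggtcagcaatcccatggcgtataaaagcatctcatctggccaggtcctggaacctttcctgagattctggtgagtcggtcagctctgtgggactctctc
Dusp1: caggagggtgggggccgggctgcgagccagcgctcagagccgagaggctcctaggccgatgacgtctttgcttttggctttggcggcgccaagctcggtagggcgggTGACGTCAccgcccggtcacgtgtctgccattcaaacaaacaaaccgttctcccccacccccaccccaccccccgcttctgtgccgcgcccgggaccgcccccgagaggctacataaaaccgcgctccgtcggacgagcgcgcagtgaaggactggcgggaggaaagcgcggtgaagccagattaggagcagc
Cyp1a1: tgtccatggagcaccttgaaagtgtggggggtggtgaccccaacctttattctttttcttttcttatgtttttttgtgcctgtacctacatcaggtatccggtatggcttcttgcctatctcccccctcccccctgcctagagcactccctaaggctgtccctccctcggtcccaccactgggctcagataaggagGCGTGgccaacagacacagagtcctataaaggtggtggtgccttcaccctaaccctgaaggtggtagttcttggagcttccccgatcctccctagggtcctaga
Of the 9 alternative activation genes with a window in the table, 2 held the STAT6-type palindrome, Retnla and Pdcd1lg2. Of the 11 immediate early genes with a window, 2 held the cAMP response element, Dusp1 and Btg2.

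Airway and alveolar secretory transcripts were the most abundant nuclear messages of the inflamed lung. Scgb1a1, which encodes the secretoglobin of club cells (chr19:9083636-9087958, minus strand, GRCm38), reached 55128 ± 13417 TPM (SD, n = 5). Sftpc, the surfactant protein of alveolar type 2 (AT2) cells, reached 21053 ± 5021 TPM. Scgb1a1 exceeded Sftpc in each lung, by 1.43 to 4.24-fold. Of other surfactant genes, Sftpa1 had 4174 ± 688 TPM and Sftpb 2413 ± 76.4 TPM. Sftpb barely differed between lungs, at 1575, 1655, 1622, 1600 and 1594 CPM in HDM replicates 1 to 5. Cbr2, a carbonyl reductase of club cells, had 3653 ± 786 TPM.

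Macrophage and antigen presentation genes came next among the 25 most abundant protein-coding genes. Lyz2, the lysozyme of myeloid and AT2 cells, had 11630 ± 1906 TPM. Chil3 (Ym1), a chitinase-like protein secreted by activated macrophages, had 7507 ± 1888 TPM, and Retnla (Fizz1), a resistin-like molecule induced by IL-4 and IL-13, had 5000 ± 1408 TPM. For scale, the housekeeping messages Actb and Eef1a1 had 5436 ± 812 TPM and 4661 ± 322 TPM. Cd74, the invariant chain of MHC class II, had 4106 ± 365 TPM, and Ctss, a lysosomal protease of antigen-presenting cells, had 3036 ± 779 TPM. Chil1, another chitinase-like gene expressed in lung epithelium and macrophages, had 2830 ± 595 TPM, and Lcn2, an iron-binding antimicrobial protein, had 1803 ± 354 TPM. Igkc, the constant region of the kappa light chain, stood among them with 16229 ± 9597 TPM and the widest spread of the genes named in this paragraph relative to its mean.

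Summed marker levels order the cell types of the lung on the TPM scale, although a longer list or a more abundant single gene raises a sum. The club cell list of 12 genes summed to 41864 to 73501 TPM, most of it Scgb1a1, and the AT2 list to 29893 to 45679 TPM. Alveolar macrophage markers summed to 6226 to 10841 TPM, most of it Chil3. Alveolar type 1 markers, led by Ager at 1673 ± 539 TPM, summed to 3367 to 5497 TPM, fibroblast markers to 3875 to 4712 TPM, and monocyte and interstitial macrophage markers to 2510 to 4182 TPM. Capillary endothelial markers summed to 2410 to 3331 TPM. Among them Cdh5, the cadherin of endothelial junctions, had 511 ± 28.1 TPM. Plasma cell markers, led by Igkc, summed to 7716 to 41086 TPM, the third highest of these lists by mean. Other lymphocyte markers were lower: the B cell list summed to 534 to 666 TPM, the T cell list to 286 to 368 TPM, and the natural killer (NK) and cytotoxic list to 81.5 to 225 TPM. Eosinophil markers summed to 159 to 397 TPM and mast cell and basophil markers to 114 to 139 TPM.

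**Figure D1:**
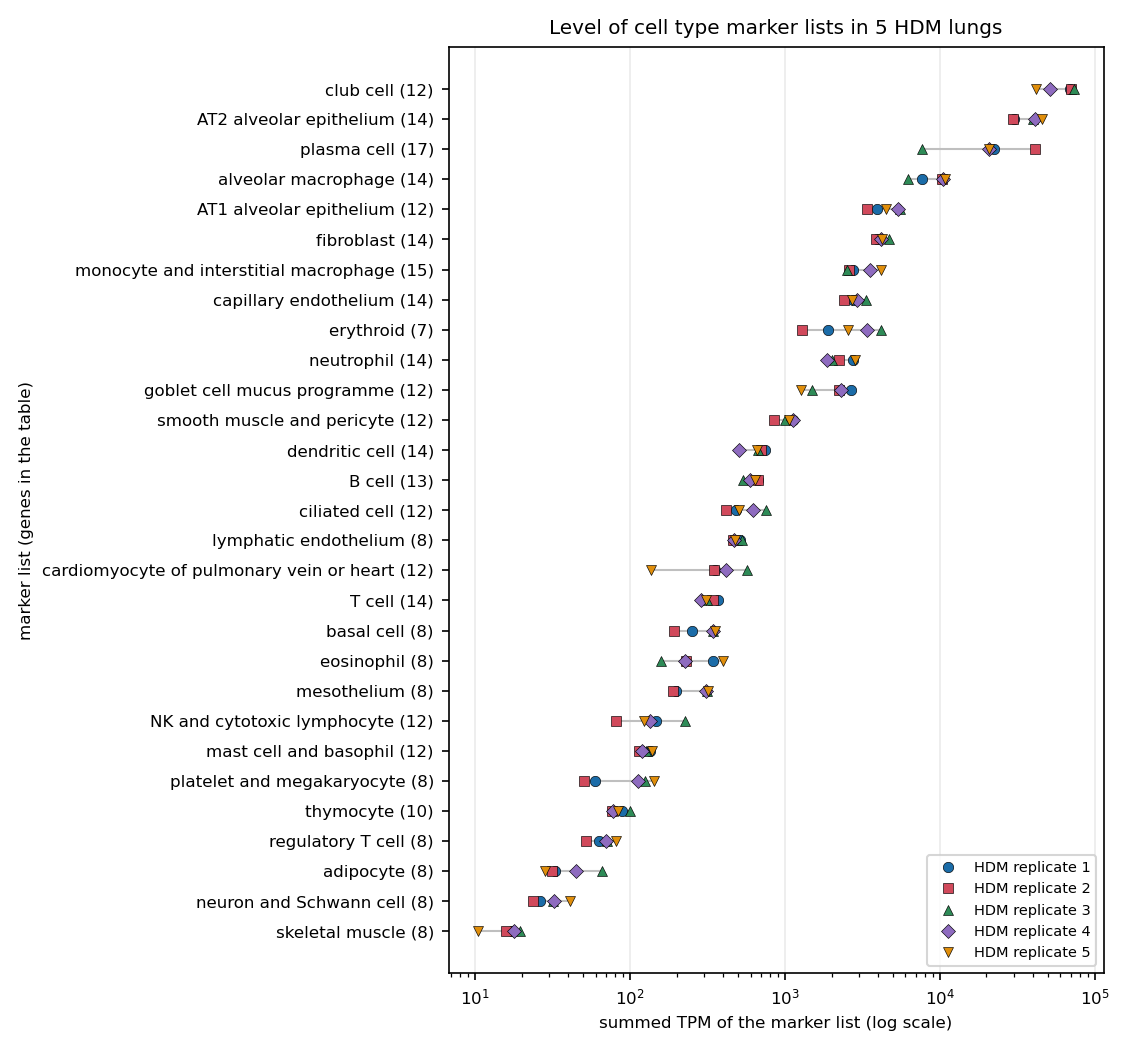
Summed TPM (x axis, log scale) of each cell type marker list and of each list for tissue that could be carried over (y axis, with the number of genes in the table), with a symbol for each HDM replicate and a grey line for the range. Club cell markers reached 41864 to 73501 TPM, and the widest ranges for their level are those of the cardiomyocyte and plasma cell lists.

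Several defining markers were at or near 0. Krt5, the keratin of basal cells, had 0 to 5 counts per library, and Ly6g, a surface marker of mouse neutrophils, had 2 to 8 counts, although the neutrophil genes S100a9 and Retnlg had 80.2 ± 23.7 and 288 ± 83.5 TPM. Epx, the eosinophil peroxidase that is transcribed chiefly in the bone marrow, had 7 to 31 counts, whereas Prg2, the eosinophil major basic protein, had 37.5 ± 15.7 TPM, Siglecf, a surface receptor shared by eosinophils and alveolar macrophages, 40.3 ± 8.64 TPM, and Alox15, a lipoxygenase of eosinophils and macrophages, 113 ± 50.8 TPM. Rag1, the recombinase of developing lymphocytes, had 9 to 26 counts, and Rag2 had 0, whereas the thymocyte list as a whole, which holds genes that mature T cells also express, summed to 76.3 to 99.3 TPM. Of the mitochondrial genes, mt-Co2, mt-Co3 and mt-Atp6 are listed at 0 to 6 counts although every cell uses them, while mt-Co1 had 18247 ± 4943 TPM. Levels of such genes cannot be read from this table, and likewise Gp1bb, which shares 92.9% of its exon bases with neighbours and is listed at 0 or 1 count, and Cfb, which shares 79.5% and is listed at 8 to 20 counts.

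The cytokines that define the type 2 response were scarce in whole lung. Il4, the cytokine that switches B cells to IgE and IgG1, had 44, 49, 21, 41 and 104 counts in HDM replicates 1 to 5, a mean of 3.78 ± 2.44 TPM. Il13, which drives mucus and eotaxins, had 25, 21, 6, 33 and 54 counts (2.09 ± 1.43 TPM), and Il5, which matures eosinophils, had 9 to 23 counts (0.767 ± 0.282 TPM). Replicate 5 was highest and replicate 3 lowest for both Il4 and Il13. Il9 was listed at 0 counts in all 5 libraries, which allows up to 0.100 CPM in the shallowest, and Il25 had a single count in 1 library. Ifng, the type 1 cytokine, had 2 to 11 counts. It shares 25.95% of its exon bases with another gene on the same strand, so its level is uncertain. Il17a, which recruits neutrophils through the epithelium, had 52, 28, 50, 45 and 58 counts (3.67 ± 1.25 TPM). Il10, a regulatory cytokine, had 8 to 17 counts.

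The epithelial alarmins differed sharply from each other in level. Il33, stored in the nuclei of AT2 and other cells and released on damage, had 287 ± 84.1 TPM, with 278, 235, 273, 213 and 392 CPM in replicates 1 to 5. Tslp, a dendritic cell-activating cytokine, had 51 to 54 counts in each library (3.56 ± 0.561 TPM). Their ratio was 58.2 to 114 within a lung. Of inflammatory cytokines, Il1b had 24.5 ± 8.00 TPM, Tnf 6.27 ± 1.37 TPM and Il6 1.42 ± 0.772 TPM. Csf2, a growth factor of alveolar macrophages and granulocytes, had 64.5 ± 28.2 TPM and was higher in replicates 1 and 2, with 26.4 and 26.0 CPM, than in replicates 3 to 5, with 14.1, 10.6 and 10.9 CPM.

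Chemokines downstream of IL-4 and IL-13 were far more abundant than the cytokines. Ccl17, which draws CCR4-bearing T cells, had 326 ± 101 TPM. Ccl8 had 144 ± 61.9 TPM. Ccl11 (eotaxin-1), a ligand of the eosinophil receptor CCR3, had 71.7 ± 27.1 TPM, with 27.2, 34.8, 12.8, 20.7 and 35.5 CPM in replicates 1 to 5, and Ccl24 (eotaxin-2), another ligand of that receptor, had 38.8 ± 28.3 TPM. The neutrophil chemokine Cxcl1 had 6.38 ± 2.47 TPM and was below Ccl11 in every lung. Serpina3n, an acute phase protease inhibitor, had 159 ± 33.9 TPM.

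Fixed pairs of genes give the balance of programmes inside a lung, free of library scaling. In 13 of 14 pairs the ratio lay on the same side of 1 in all 5 lungs, and each of these 13 reached the smallest p that an exact two-sided sign-flip test of 5 lungs can give, 0.0625 (0.0673 after Benjamini-Hochberg adjustment over 14 pairs), so no pair could pass 0.05. Arg1, the arginase of alternatively activated macrophages, exceeded Nos2, the nitric oxide synthase of classically activated ones, by 4.21 to 17.6-fold (geometric mean 8.59). Ccl11 exceeded Cxcl1 by 4.30 to 23.7-fold (11.1), and Cd4 exceeded Cd8a by 3.81 to 9.53-fold (6.26). Il13 exceeded Ifng in 4 of 5 lungs (exact p = 0.125, 0.125 adjusted), with replicate 3 at a ratio of 0.645 and replicates 4 and 5 at 17.7 and 29.0, where Ifng had 2 counts each. The exon overlap of Ifng given above adds to the uncertainty of this ratio. Il13 lay below Il17a in all 5 lungs, at 0.117 to 0.905 of its TPM.

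Mucin, chitinase-like and antibody pairs were as one-sided. Muc5ac, the gel-forming mucin that allergic inflammation induces, had 26.7 ± 11.1 TPM and lay below Muc5b, the constitutive airway mucin at 95.7 ± 24.8 TPM, at 0.210 to 0.340 of its level. Chil3 exceeded Chil4 by 20.8 to 99.1-fold. The longest transcripts of this pair share 94.2% identity over 1543 aligned positions, so reads that map to both can be lost or divided, and the ratio is uncertain. Ighg1, the IL-4-dependent mouse IgG subclass, exceeded Ighg2b by 8.33 to 33.9-fold, Igkc exceeded Iglc2 by 49.4 to 223-fold, and Ighm exceeded Igha by 3.34 to 6.65-fold. Retnla exceeded Retnlg by 13.4 to 20.2-fold, and Col3a1 exceeded Col1a1, both fibrillar collagens, by 2.10 to 2.40-fold, the narrowest range of the 14.

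**Figure D2:**
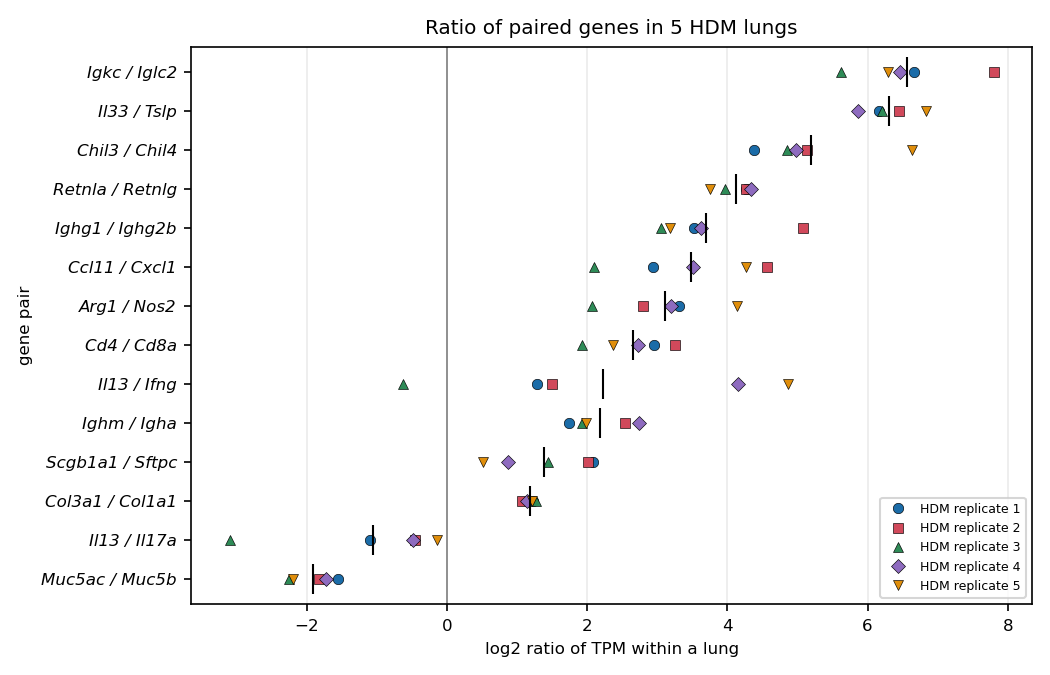
Log2 ratio of TPM (x axis) of 14 gene pairs (y axis) within each of 5 HDM lungs, with a symbol per replicate, a black bar for the mean and a grey line at equal levels. In all, 13 pairs keep to 1 side of the line, and Il13 over Ifng crosses it in replicate 3.

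Before the differences between lungs are given, a technical trend that runs through them has to be stated. HDM replicates 1 and 2 differed from replicates 3 to 5 with the base composition of the transcripts. In the 3194 genes with the lowest GC content (28.3% to 43.2%), the median gene deviated from its 5-library mean by 0.16 and 0.18 log2 units in replicates 1 and 2 and by -0.10, -0.14 and -0.08 in replicates 3, 4 and 5. In the 3192 genes with the highest GC content (55.0% to 78.3%) the deviations were -0.22 and -0.28 in replicates 1 and 2 and 0.15, 0.21 and 0.15 in the others. The labels name no batch for this split. The 2 highest libraries were replicates 1 and 2 for 4464 of 15983 genes (27.9%). A lowess correction of each library for GC content left none of the 5 GC groups more than 0.01 from the mean, and its values are given below where they bear on a result. Among replicates 3 to 5 alone, 831 genes were at least 2-fold apart.

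**Figure D3:**
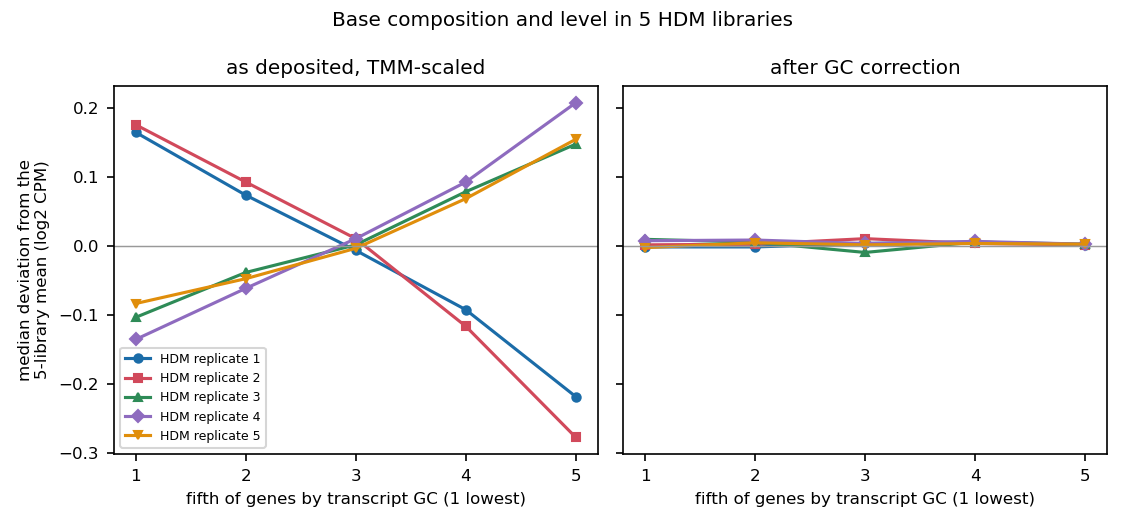
Median deviation of genes from their 5-library mean in log2 CPM (y axis) for 5 groups of genes ordered by transcript GC content (x axis), per HDM replicate, as deposited and after GC correction. Replicates 1 and 2 slope down, replicates 3 to 5 slope up, and the slopes are absent after the correction.

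Genes that split the libraries along this line included abundant ones. B2m, the light chain of MHC class I (41.2% GC), had 5688 and 5898 CPM in replicates 1 and 2 and 2584, 2619 and 2753 CPM in replicates 3 to 5. Rps14, a ribosomal protein (56.0% GC), had 43.3 and 42.5 CPM in replicates 1 and 2 and 186, 178 and 157 CPM in the others, and Rpl13 had 72.4 and 65.4 CPM against 155, 164 and 150 CPM. The gaps of B2m and Rps14 were wider than the median deviations given above for genes of like GC content. The part of GC content in them was not tested. Not all such genes followed even the direction of the GC trend. Tnfsf12, a TNF family ligand (58.5% GC), had 41.0 and 37.3 CPM in replicates 1 and 2 and 12.7, 12.8 and 13.4 CPM in replicates 3 to 5. Ifitm2, an interferon-induced membrane protein (54.4% GC), had 176 and 140 CPM in replicates 1 and 2 and 71.7, 61.5 and 61.3 CPM in the others, and Ubald2 (58.9% GC) had 44.3 and 37.5 CPM and 17.5, 18.7 and 18.7 CPM. Tnfsf12 shares 48.2% and Ifitm2 40.9% of exon bases with another gene on the same strand.

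Mitochondrial and immediate early transcripts moved with this split. All 9 mitochondrial genes that averaged 1 CPM or more were lowest in replicate 5, against 20.1% of all genes, and 7 of 9 were highest in replicate 2, against 25.2%. The mitochondrial list, at a mean of 36.7% GC, spanned 1.17 log2 units, 0.86 after GC correction, and 0.41 without replicates 1 and 2. The cytochrome b gene mt-Cytb had 4830, 5689, 2480, 2466 and 1971 CPM in replicates 1 to 5. Of 14 immediate early genes, which respond within minutes to growth factors, stress or tissue handling, 11 were lowest in replicate 2, against 26% of all genes. Fos had 28.7, 15.3, 59.7, 58.3 and 58.2 CPM, Junb 56.3, 35.4, 117, 140 and 139 CPM, and Dusp1, a phosphatase that ends MAP kinase signals, 83.6, 41.8, 134, 135 and 119 CPM. Jun itself ranged only from 218 to 260 CPM. This list, at a mean of 55.1% GC, spanned 1.06 log2 units, and 0.73 after GC correction with replicate 2 still lowest. Without replicate 2 it spanned 0.60, and without replicates 1 and 2 it spanned 0.14. The part of GC content in these differences beyond that correction was not tested.

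Of the 50 lists, 29 had scores that spanned at least 0.5 log2 units between libraries and 11 spanned at least 1. A score is the mean deviation of the list's members from their own 5-library means in log2 CPM. With 5 libraries no correlation between lists was computed, and lists are compared by the order of the libraries. Of 1225 pairs of lists, 24 ordered the 5 libraries in the same way. Unrelated lists would also agree at times, and how many pairs would do so was not computed. Some lists share genes, and all share the GC split. In bulk tissue, fewer cells of a type and less RNA per cell cannot be told apart, which holds for every list below. After GC correction 36 of the 50 lists had both the same highest and the same lowest library.

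**Figure D4:**
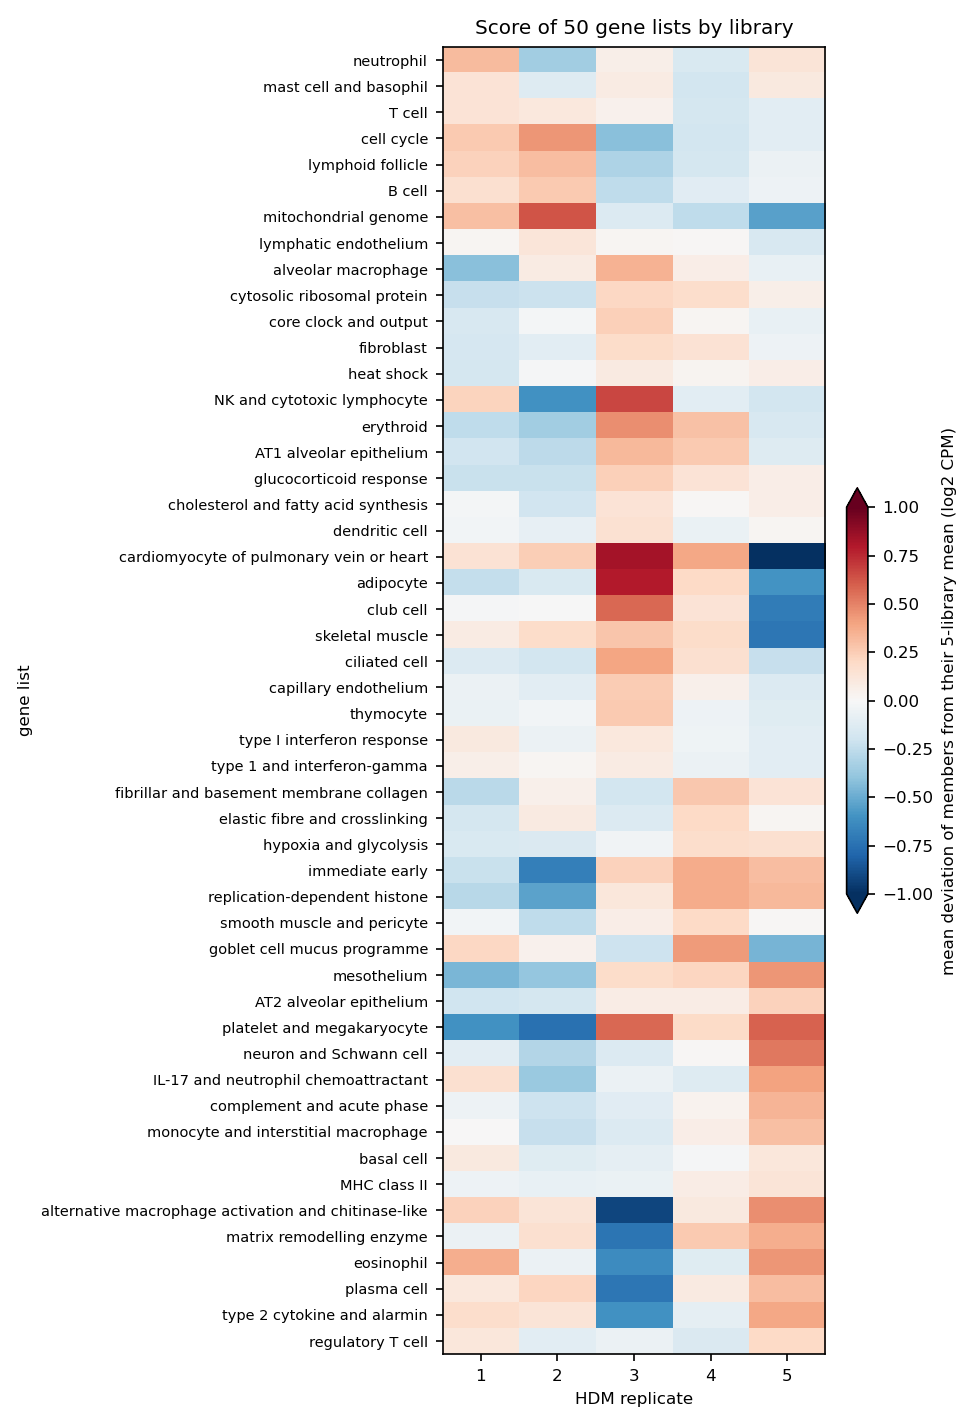
Score of 50 gene lists (rows, grouped by their highest and lowest library) in each HDM replicate (columns), as the mean deviation of members in log2 CPM, with red above and blue below the 5-library mean and the scale ending at 1 in each direction. The type 2, alternative activation, eosinophil, plasma cell and matrix remodelling lists are lowest in replicate 3 and highest in replicate 5, and the cardiomyocyte list in replicate 5 lies beyond the scale at -1.61.

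The widest contrast of allergic programmes lay between replicate 5, where they were high, and replicate 3, where they were low. The type 2 cytokine and alarmin list (scores 0.39 in replicate 5 and -0.61 in replicate 3), the alternative activation list (0.46 and -0.92) and the eosinophil list (0.44 and -0.63) put the libraries in the same order, which was 5, 1, 2, 4, 3 from high to low. The type 2 list and the alternative activation list share Ccl24, and the eosinophil list shares no gene with either. Il5, Il9 and Il25 were too thinly counted to enter the type 2 score, which rests on 12 of 16 members. The filter also dropped Il13, which had 6 counts in replicate 3, the lowest library of this list, and 21 to 54 in the others. GC correction left the highest and lowest library of the 3 lists as they were. The matrix remodelling list (0.37 and -0.73) and the plasma cell list (0.31 and -0.72) were also highest in replicate 5 and lowest in replicate 3, with other orders between. High scores in replicate 5 were not particular to allergic programmes. The IL-17 and neutrophil chemoattractant list (0.40), the complement and acute phase list (0.34) and the monocyte and interstitial macrophage list (0.30) were highest there too, but lowest in replicate 2. Without replicate 3 the spans were 0.36 rather than 1.38 for alternative activation, 0.22 rather than 1.03 for plasma cells, 0.42 rather than 1.09 for matrix remodelling, 0.56 rather than 1.07 for eosinophils and 0.48 rather than 0.997 for the type 2 list, which spanned 0.43 with the median over members.

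Single genes of the alternative activation list were many-fold apart between these lungs. Of 12 members, 7 were at least 2-fold apart, against 16.2% of all genes, 7 were highest in replicate 5, against 17.6% of all genes, and 8 were lowest in replicate 3, against 22.7%. Arg1 (chr10:24915221-24927484, minus strand) had 97.9, 105, 12.5, 88.7 and 231 CPM in replicates 1 to 5. Replicate 3 lay below all others, and the highest library was 18.5-fold over the lowest. Ccl24 (chr5:135569937-135573049, minus strand) had 21.6, 22.0, 0.535, 9.31 and 30.8 CPM, a range of 57.5-fold. Retnla, whose promoter window is printed above, had 1255, 1329, 586, 919 and 993 CPM, and Chil3 had 3373, 5120, 2694, 4918 and 4668 CPM. For both, replicate 3 was again lowest while replicate 2 was highest. Chil4 broke the pattern with 280, 252, 160, 270 and 81.3 CPM, lowest in replicate 5. Nos2, the classical activation gene, was lowest in replicate 3 too, with 19.6, 29.8, 5.88, 19.1 and 25.9 CPM.

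Matrix remodelling genes of macrophages and other cells followed. Of 16 members, 10 were lowest in replicate 3, against 22.7% of all genes, and 8 were highest in replicate 5, against 17.6%. Mmp12, the elastase of macrophages, had 1555, 2136, 334, 1306 and 1164 CPM. Mmp13, a collagenase, had 34.4, 53.2, 3.41, 34.0 and 55.4 CPM. Spp1 (osteopontin), a secreted matrix protein made by macrophages in injured lung, had 226, 239, 67.7, 237 and 443 CPM. For each of these genes replicate 3 lay below the range of the other 4. The structural gene Eln (elastin) had 910, 1812, 467, 1506 and 1391 CPM, and Fn1 (fibronectin) 2517, 2941, 1488, 2299 and 3108 CPM, both lowest in replicate 3. The collagen list as a whole followed another order, highest in replicate 4 and lowest in replicate 1 with a span of 0.54, but after GC correction it was highest in replicate 2 (0.23) and lowest in replicate 3 (-0.28). Within it Col4a1, a basement membrane collagen, had 780, 959, 894, 1425 and 1381 CPM.

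All 7 eosinophil genes at a mean of at least 1 CPM were lowest in replicate 3, against 22.7% of all genes. Of these, 3 were highest in replicate 1 and 4 in replicate 5, each against 17.6% of all genes. Alox15 had 123, 80.3, 50.4, 68.8 and 142 CPM, Prg2 13.5, 9.15, 4.38, 10.8 and 14.8 CPM, and Siglecf 40.3, 35.0, 29.2, 37.7 and 47.3 CPM. The highest to lowest ratio of Siglecf was 1.62, close to the 1.45 of the median gene. Itgam, an integrin of granulocytes and monocytes, was lowest in replicate 3 as well, with 48.2, 44.1, 14.4, 20.1 and 32.6 CPM, but shares 68.7% of its exon bases with another annotated gene. Neutrophil genes did not follow this order, being highest in replicate 1 (score 0.32) and lowest in replicate 2 (-0.35). The acute phase gene Saa3 had 39.2, 34.1, 16.4, 29.2 and 51.4 CPM, again with replicate 5 highest and replicate 3 lowest.

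Markers of resident alveolar macrophages went both ways. Of 14 members, 8 were highest and 6 were lowest in replicate 3, each against 22.7% of all genes. Marco, a scavenger receptor of these cells, had 1.59, 6.83, 9.89, 4.30 and 3.62 CPM in replicates 1 to 5. Krt79, a keratin gene used as an alveolar macrophage marker in mice, had 3.25, 7.18, 17.9, 7.55 and 4.70 CPM, Cidec, a lipid droplet protein, 1.16, 1.54, 5.41, 2.65 and 1.89 CPM, and Fabp1, a fatty acid-binding protein, 0.596, 0.725, 2.84, 0.924 and 0.658 CPM. Replicate 3 lay above the other 4 for all of them. The 6 members lowest in replicate 3 included Chil3 and Siglecf, which the list shares with the alternative activation and eosinophil lists, and the score was lowest in replicate 1, without which the span of 0.77 was 0.42.

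Cytotoxic lymphocyte genes were also highest in replicate 3. Of 12 members, 9 were highest there, against 22.7% of all genes, and 9 were lowest in replicate 2, against 26%. Gzma, a granzyme, had 14.2, 7.93, 28.2, 12.8 and 9.25 CPM, Nkg7, a granule protein, 4.60, 1.94, 7.79, 3.86 and 4.07 CPM, and Tbx21, the transcription factor T-bet, 1.89, 1.40, 5.05, 2.65 and 3.08 CPM. Klra8, an NK receptor, departed from them with 4.27, 1.01, 3.94, 1.72 and 1.92 CPM, as replicate 1 was highest. The list span of 1.28 was 0.83 without replicate 3 and 0.85 without replicate 2. Interferon lists had small spans of their scores: the type I interferon list spanned 0.21 log2 units and the type 1 and interferon-gamma list 0.19, or 0.30 with the median over members. None of 14 members of the first and 4 of 11 of the second were at least 2-fold apart, against 16.2% of all genes, and the highest library differed between members. Gbp2, an interferon-induced GTPase, ranged from 69.7 to 94.2 CPM and Ifit3 from 32.1 to 55.6 CPM. The MHC class II list spanned 0.20, with Cd74 between 2194 and 2485 CPM.

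Conducting airway genes varied along the same 2 lungs. Of 12 club cell genes, 10 were highest in replicate 3, against 22.7% of all genes, and 10 were lowest in replicate 5, against 20.1%, with scores of 0.58 and -0.70. The span of 1.28 was 0.59 without replicate 5 and 0.84 without replicate 3. Scgb1a1 had 10132, 11183, 10562, 7351 and 5535 CPM, so that replicates 4 and 5 were the 2 lowest. Scgb3a1, a secretoglobin of the upper airway, had 140, 123, 227, 208 and 82.2 CPM. Reg3g, an antimicrobial lectin, had 71.0, 42.8, 72.6, 71.2 and 10.6 CPM, and Bpifa1, an airway surfactant protein, 4.80, 4.73, 10.7, 7.91 and 1.62 CPM. Of 12 ciliated cell genes, 10 were highest in replicate 3 and 7 lowest in replicate 5. Foxj1, the master regulator of motile cilia, had 55.3, 43.2, 95.2, 87.0 and 59.0 CPM, and Tppp3, a tubulin-binding protein, 79.6, 68.1, 182, 140 and 108 CPM. Foxj1 has 61.4% GC, and both were lowest in the libraries with the downward GC slope.

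Mucus genes were lowest in replicate 5 although its type 2 score, which leaves out Il5 and Il13, was the highest. Of 12 members of the goblet list, 10 were at least 2-fold apart, against 16.2% of all genes, 8 were lowest in replicate 5, against 20.1%, and 6 were highest in replicate 4, against 16.9%. The score was highest in replicate 4, and after GC correction in replicate 1 (0.320, against 0.317 in replicate 4), with replicate 5 still lowest. Muc5ac had 142, 130, 65.9, 108 and 44.5 CPM in replicates 1 to 5. Clca1, a goblet cell protein induced by IL-13, had 2656, 2411, 1429, 2235 and 948 CPM, and Itln1, an intelectin, 7.55, 6.57, 5.08, 12.6 and 2.48 CPM. Replicate 3 was the second lowest and replicate 5 the lowest for all of them. Slc26a4 (pendrin), an anion exchanger that is also induced by IL-13, was an exception with 157, 124, 69.2, 158 and 252 CPM, highest in replicate 5. Alveolar type 2 genes were highest in replicate 5 for 8 of 14 members, against 17.6% of all genes. The list span was 0.43, or 0.28 without replicate 5, 0.16 without replicates 1 and 2 and 0.38 after GC correction.

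Heart muscle transcripts were lowest in the library that had the lowest club and ciliated cell scores. The cardiomyocyte list marks the muscle sleeve of mouse pulmonary veins or attached heart tissue. It spanned 2.44 log2 units, the widest of the 50 lists. All 10 members that the filter kept were lowest in replicate 5, against 20.1% of all genes. Without replicate 5 the span was 0.69. Myh6, the atrial myosin heavy chain, had 181, 247, 258, 174 and 24.8 CPM, and Myl7, the atrial myosin light chain, 13.1, 14.4, 32.4, 19.6 and 3.35 CPM. Nppa, atrial natriuretic peptide, had 98, 101, 182, 94 and 0 counts, and Sln (sarcolipin) had 80, 85, 155, 104 and 6 counts. The filter dropped both genes for their low counts in replicate 5, so the list score and span leave them out. The 0 counts of Nppa in replicate 5 allow up to 0.0898 CPM, and 61.5% of its exon bases lie opposite another gene. Adipocyte genes put the libraries in the same order as club cell and cardiomyocyte genes, which was 3, 4, 2, 1, 5. After GC correction the cardiomyocyte list placed replicate 2 (0.333) above replicate 4 (0.324), while the club cell and adipocyte lists kept their order. Among adipocyte genes Cfd (adipsin) had 6.43, 5.87, 14.2, 9.15 and 3.35 CPM. Ckm, the creatine kinase of striated muscle, had 2.72, 3.46, 6.28, 5.83 and 0.539 CPM. The share of airway, vein and surrounding tissue in each lobe is not in the labels, and its part in the differences between these lungs was not tested.

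Blood-borne transcripts were lowest in replicates 1 and 2 by list score, and the erythroid list put the libraries in the same order as the alveolar type 1 and glucocorticoid response lists, which was 3, 4, 5, 1, 2. After GC correction the erythroid scores were -0.166, -0.232, 0.404, 0.213 and -0.218 in replicates 1 to 5, so replicate 5 lay below replicate 1. The alveolar type 1 list then still shared the erythroid order, but the glucocorticoid response list did not. Hbb-bs, a beta-globin gene, had 193, 117, 714, 568 and 406 CPM in replicates 1 to 5, and Hba-a1, an alpha-globin gene, 176, 141, 236, 185 and 134 CPM, with the caution that globin genes have near-identical copies. All 6 platelet genes that the filter kept were at least 2-fold apart, against 16.2% of all genes. Gp9, which the filter dropped, had 12, 11, 70, 47 and 69 counts. Ppbp, a platelet chemokine, had 6.46, 5.33, 15.9, 9.21 and 13.3 CPM, and Itga2b, the platelet integrin, 6.29, 4.73, 13.5, 9.21 and 14.7 CPM. Replicates 1 and 2 were the 2 lowest for each, and the list spanned 1.34 log2 units, or 1.23 after GC correction and 0.40 without replicates 1 and 2.

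Proliferation and B cell follicle genes formed a further group, highest in replicate 2 and lowest in replicate 3. The B cell list (0.26 and -0.26), the lymphoid follicle list (0.31 and -0.31) and the cell cycle list (0.44 and -0.42) put the libraries in the same order, 2, 1, 5, 4, 3. The follicle list shares 1 gene with the B cell list and neither shares a gene with the cell cycle list. Of 15 cell cycle genes, 10 were highest in replicate 2, against 25.2% of all genes, and 12 were lowest in replicate 3, against 22.7%. Mki67, a marker of dividing cells, had 335, 425, 143, 190 and 213 CPM, and Top2a, the topoisomerase of dividing cells, 109, 135, 57.7, 71.4 and 77.2 CPM. Nuggc, a nuclear GTPase of germinal centre B cells, had 3.58, 5.43, 0.902, 1.82 and 2.01 CPM, and Mybl1, a transcription factor of the same cells, 11.2, 17.8, 4.68, 7.01 and 5.90 CPM.

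Of 13 B cell genes, 8 were highest in replicate 2, against 25.2% of all genes, 7 were lowest in replicate 3, against 22.7%, and 1 was at least 2-fold apart, against 16.2%. Cr2, a complement receptor of B cells and follicular dendritic cells, had 71.1, 68.9, 32.7, 31.4 and 37.4 CPM, and Bank1, a B cell scaffold protein, 85.2, 88.0, 44.4, 46.5 and 60.5 CPM. Tnfrsf13c, the receptor of the survival factor BAFF, is not among the 13 and had 30.6, 34.7, 15.8, 15.9 and 17.4 CPM. Cxcl13, the chemokine that builds B cell follicles, had 14.7, 13.7, 4.85, 6.02 and 11.6 CPM. Cd79b, a subunit of the B cell receptor, was level at 70.4 to 80.2 CPM. Cd79a, its partner subunit, departed from the list with 30.7, 33.0, 37.7, 44.0 and 42.1 CPM, as replicates 1 and 2 were the 2 lowest. After GC correction the follicle list spanned 0.71 and the cell cycle list 0.83, with the same highest and lowest libraries. Among replicates 3 to 5 alone the spans were 0.25 and 0.31.

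The 6 antibody constant regions named here were lowest in replicate 3. Ighg1 (chr12:113325240-113330523, minus strand) had 2348, 4886, 465, 1596 and 1859 CPM in replicates 1 to 5, and Igkc 2938, 6038, 934, 2554 and 2348 CPM. Ighe, the constant region of IgE (chr12:113269260-113273248, minus strand), had 21.4, 81.5, 3.14, 8.00 and 13.6 CPM, a range of 26.0-fold. Replicate 3 lay below the other 4 in each, and replicate 2 above. The mucosal class Igha varied less, at 392, 438, 246, 422 and 478 CPM. Ighm had 925, 1799, 661, 1983 and 1336 CPM and was highest in replicate 4. Iglc1, a lambda constant region with near-identical neighbours, had 80.4 CPM in replicate 5 and 13.1 to 26.5 CPM in the other 4.

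Antibody variable segments differed in their shares from lung to lung, although most leading segments were shared by a pair of lungs. All 113 segments at a mean of at least 1 CPM were at least 2-fold apart between libraries, against 16.2% of all genes. Their median range was 7.92-fold, against 1.45-fold for all genes. Of them, 43 were at least 10-fold apart, a fold at which the share of all genes was not counted. Igkv1-117 took 22.3% of kappa variable segment counts in replicate 2 (Wilson 95% interval 21.9 to 22.7) and 19.8% (19.4 to 20.3) in replicate 5. Igkv12-89 led in replicates 3 and 4 with 15.7% (15.0 to 16.4) and 11.5% (11.1 to 11.9), and Igkv14-111 in replicate 1 with 10.7% (10.3 to 11.1). Among heavy chain segments Ighv1-82 led in replicates 1 and 2 with 8.94% (8.53 to 9.37) and 8.42% (8.17 to 8.68), and Ighv6-3 in replicates 3 and 4 with 11.5% (10.8 to 12.2) and 9.06% (8.72 to 9.41). Ighv1-72 led in replicate 5 with 9.72% (9.36 to 10.1), against at most 3.40% in the other 4. The intervals cover counting error only, and similar segments can share reads.

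Some genes were high in a single lung. Cyp1a1, the cytochrome P450 induced through the aryl hydrocarbon receptor and shown above with its promoter window, had 12.8 CPM in replicate 2 and 0.530, 1.34, 0.478 and 0.509 CPM in replicates 1, 3, 4 and 5. Of other targets of that receptor, looked up after this value was seen, Cyp1b1 was highest in replicate 2 as well (18.0, 21.4, 13.3, 11.2 and 11.6 CPM in replicates 1 to 5), Tiparp was level at 54.3 to 57.3 CPM, and Ahrr had 0.497, 0.866, 1.07, 0.669 and 0.329 CPM. Prg4 (lubricin), a surface lubricant of joints and serosal linings, had 15.3 CPM in replicate 5 and 0.368 to 0.828 CPM in the others. Of 8 mesothelial genes, 3 were highest there, against 17.6% of all genes, 3 in replicate 3 and 2 in replicate 4. Wt1 had 4.40 CPM in replicate 5 against 1.37 to 2.08 CPM, and Lrrn4 15.0 CPM against 4.57 to 9.05 CPM. The mesothelium list, at 0.44 in replicate 5, spanned 0.90 log2 units, or 0.73 after GC correction and 0.26 without replicates 1 and 2.

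Replicate 3 held its own outlying genes. Fpr2 and Fpr1, receptors for formyl peptides on phagocytes, had 5.81 and 7.49 CPM there, against at most 1.18 and 2.45 CPM elsewhere. Inmt, a methyltransferase of lung fibroblasts, had 634 CPM in replicate 3 and 197 to 285 CPM elsewhere, and Tcf21, a transcription factor of lipofibroblasts, 56.4 CPM against 17.9 to 31.9 CPM. Zbtb16, a transcription factor induced by glucocorticoids, had 88.1 CPM there and 33.5 to 48.5 CPM elsewhere, and Dbp, a clock output gene, had 156 CPM against 66.5 to 124 CPM. Fcna, a ficolin of macrophages, was high in replicate 5, with 9.73 CPM against 1.32 to 2.32 CPM. In replicate 4 the largest ratio to the median of 5 libraries among the named genes was 2.53, for Grem1, an antagonist of BMP signals.

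**Figure D5:**
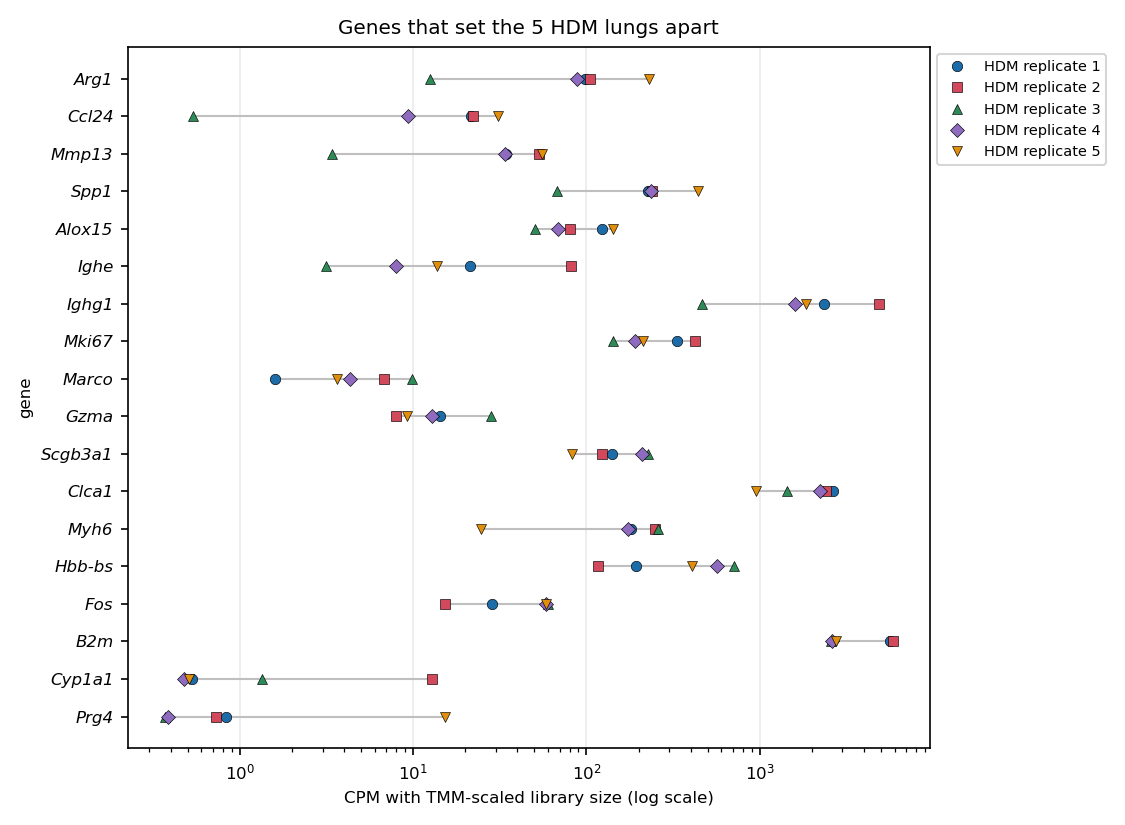
CPM (x axis, log scale) of 18 genes (y axis) in each HDM replicate, with a grey line for the range. Replicate 3 is lowest for Arg1, Ccl24, Mmp13, Spp1, Alox15, Ighe, Ighg1 and Mki67 and highest for Marco, Gzma, Scgb3a1 and Hbb-bs, and replicate 5 is lowest for Clca1 and Myh6.

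Other genes hardly differed among the 5 lungs. Among protein-coding genes with at least 100 CPM, those with the smallest spread included Nmt1, an N-myristoyltransferase, at 112, 115, 113, 114 and 115 CPM and Sft2d2, a vesicle transport gene, at 138, 139, 142, 138 and 140 CPM. Their biological coefficient of variation, edgeR's shrunken estimate of spread beyond counting error, was 0.110 to 0.111, against a median of 0.187 over 17371 genes. Shrinkage draws each gene towards genes of similar level, so for these genes the estimate exceeds the spread of the printed CPM. At the other end 414 of 17371 genes (2.38%) had a value of at least 0.4, and of the 370 among them with at least 1 CPM, 101 were immunoglobulin genes. The share of immunoglobulin genes among all 15983 genes at that level was not counted, but 113 were variable segments. For the genes named above it was 0.649 for Arg1, 0.832 for Ccl24, 0.832 for Ighe, 0.569 for Myh6, 1.05 for Cyp1a1 and 1.15 for Prg4.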

How the data were processed

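Whole-number counts for each Ensembl gene were deposited as 1 table. The submitters' processing notes name STAR 2.5.3a and build GRCm38. Which program counted the reads, whether it used strand, and on which annotation, is not stated in the labels or the file. Of 166 genes examined for the text, 11 share at least 20% of their exon bases with another gene, and without a known strand setting sense and antisense reads cannot be told apart there. Gene names, coordinates and exon lengths came from GENCODE M21 on GRCm38, which matched 55240 of 55421 identifiers.

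From the 5 HDM columns, edgeR 4.0.16 in R 4.3.3 (filterByExpr, TMM factors of 0.969 to 1.02) kept 17371 genes and gave their biological coefficient of variation. CPM, TPM (union exon length of at least 200 bases), list scores and exact sign-flip tests of 14 gene pairs were computed in Python 3.11.15. List scores use log2 CPM with a prior count of 0.5 and all members that the filter kept. Counts of list members, and the shares of all genes beside them, use kept genes at a mean of at least 1 CPM. There is 1 group, so no test between groups was made, and precision is set by 5 mice and by 29635897 to 44201637 counts per library. Shares carry Wilson 95% intervals, and a count of 0 is read as allowing 3 counts. On simulated counts for 17371 genes of these 5 libraries, 79% of planted 2-fold and 100% of planted 4-fold changes in a library passed the 2-fold rule, as did 3.43% of unchanged genes. Every simulated gene had a biological coefficient of variation of 0.15 and no GC trend, against a median of 0.187 in the data. The 3.43% is therefore not the share to expect among unchanged genes of the real libraries.

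The 50 gene lists (22 for cell types, 7 for tissue that could be carried over and 21 for programmes, 587 distinct genes, of which 531 were kept), the panel, the pairs and the libraries were chosen with earlier results of these data known. Genes are named by a rule: the panel and pair genes, the 25 most abundant protein-coding genes, 3 members of each list by level and 2 by range, 6 genes highest in each library, and 10 genes of at least 100 CPM with the smallest spread. Some genes that the rule names are not reported here. Epx, Nppa, Sln, Krt5, Ly6g, Rag1, Rag2, Il9, Il25, Iglc1, Cyp1b1, Tiparp, Ahrr, Cfb, Gp1bb, mt-Co2, mt-Co3 and mt-Atp6 fell outside it and were chosen after their values were seen, as were the variable segments, taken as the leading one of each library. Alternatives were RLE, upper-quartile and no scaling, other filters, folds and prior counts, DESeq2 1.42.0, medians, longest-transcript TPM and leaving out each library, with GC correction and leaving out HDM replicates 1 and 2 added after seeing the data. Promoter sequences are RefSeq's, build GRCm38.p6.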

Additional observations from a re-analysis of the deposited data

Results flagged for a closer look

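For 238 values measured in the 5 libraries (list scores, shares of counts, pair ratios and levels of the genes examined for the text), the gap between the outermost library and its neighbour was compared with the whole range by Dixon's criterion, and 27 passed. Chance flags about 1 in 20 groups of this size, but many of these genes were named because a library stood out. The 27 of 238 therefore cannot be set against that rate, and many of these values move together.

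Replicate 3 stood apart with the lowest plasma cell score (-0.72) and the lowest alternative activation score (-0.92), and with the highest thymocyte score (0.26), a list whose Rag1 counts were 9 to 26. Of single genes it was highest for Fabp1 (2.84 CPM), Fpr1 (7.49 CPM), Fpr2 (5.81 CPM), Htr2c, a serotonin receptor (3.11 CPM), Inmt (634 CPM), Rims2, a synaptic vesicle protein (4.75 CPM), and Zbtb16 (88.1 CPM), and it was lowest for Iglc2 (21.8 CPM).

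Replicate 5 stood apart with the lowest cardiomyocyte score (-1.61) and skeletal muscle score (-0.72), the highest share of counts in long intergenic RNAs (2.52%, against at most 2.19% in the others) and the lowest level of Scd1, a fatty acid desaturase (3204 CPM). It was highest for Cxcl3, a neutrophil chemokine (4.16 CPM), Fcna (9.73 CPM), Iglc1 (80.4 CPM), Prg4 (15.3 CPM), Serpina11, which shares 40.8% of its exon bases with another gene (2.81 CPM), and Wt1 (4.40 CPM).

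Replicate 2 stood apart with the highest log2 ratio of Ighg1 over Ighg2b (5.08), the highest Cyp1a1 (12.8 CPM) and Ighe (81.5 CPM) and the lowest Il17a (0.655 CPM, or 28 counts). The remaining values rest on 1 count each, Gp1bb in replicate 2 (0.0234 CPM) and Il25 in replicate 4 (0.0319 CPM). The causes were not tested.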

How the results depend on the processing

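No paired analysis was possible because the libraries form 1 group and their numbers follow the order of deposition. The count of genes at least 2-fold apart, 2588, was 1120 with a mean of at least 5 CPM, 612 with a fold of 3, 831 without HDM replicates 1 and 2 (fewer libraries and no GC split), and 1811 to 2310 without each library in turn. GC correction gave 1942. The count with a biological CV of at least 0.4, 414, was 14435 with no filter on low counts (34774 genes), 508 with DESeq2 and 284 to 435 without each library. The 29 lists spanning 0.5 log2 units became 15 without HDM replicates 1 and 2, and 22 to 28 without each library.

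The direction of every pair held under each alternative run. The log2 ratio of Col3a1 over Col1a1 was 1.18, and 1.85 with TPM from the longest transcript. The first principal component held 45.9% of the variance of 500 genes, 56.6% over all genes and 43.8% after GC correction. Highest and lowest library stayed the same for 50 of 50 lists under RLE scaling, 43 under upper-quartile, 42 under no scaling, 34 with medians over members and 36 under GC correction. Of the recomputed list spans, 602 moved by less than the SD of the list's 5 scores and 48 by more, 17 of these without HDM replicates 1 and 2 and 10 without replicate 3. Genes under about 10 counts, and likewise Il5 (9 to 23 counts), Ifng (2 to 11) and Il10 (8 to 17), are too thinly counted to order the libraries.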

Other observations

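The principal components of the 500 most variable genes set the 5 lungs out along more than a single line. The first component held 45.9% of the variance and ran from -18.9 in replicate 2 to 21.4 in replicate 3, with replicate 5 at -0.37. The second held 28.0% and placed replicate 5 at 18.0 and replicate 3 at -12.2. Genes highest in replicates 1 and 2 and at least 2-fold apart had a median GC content of 43.0% and 44.8%, against 53.7%, 56.8% and 51.9% for those highest in replicates 3, 4 and 5.

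Clock, heat shock and lipid synthesis lists had small spans of their scores, although 6 of 15 clock genes were at least 2-fold apart, against 16.2% of all genes. The heat shock list spanned 0.26 log2 units (0.10 without replicate 1). The clock and output list spanned 0.40 with 10 of 15 members highest in replicate 3, against 22.7% of all genes (0.18 without replicate 3), and the cholesterol and fatty acid list spanned 0.33 (0.16 without replicate 2). The hypoxia and glycolysis list spanned 0.33, or 0.22 after GC correction. The replication-dependent histone list ordered the libraries as the immediate early list did, 4, 5, 3, 1, 2, with a span of 0.90, or 0.70 after GC correction. Hist1h2ab, a histone H2A gene, had 3.51, 2.48, 4.08, 6.34 and 7.39 CPM in replicates 1 to 5.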
